A study of Mus musculus with 4 samples.

Results

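Messenger RNA of 7 genes of polyamine metabolism was followed in dispersed pancreatic islet cells of NOD mice, a strain prone to autoimmune diabetes. The genes are Odc1, Amd1, Srm, Sms, Oaz1, Oaz2 and Sat1, 7 of the 32285 genes in the deposited matrix, taken by their symbols. They were chosen by name, with the wide spread of Odc1 between libraries already known, so every value below describes these libraries and no test is attached to it. The title of the study concerns the genes under IRE1α, a stress sensor of the endoplasmic reticulum, and Xbp1, the transcription factor it activates. Its labels name 2 groups of 2 samples, Xbp1β-/- islets, in which the gene was deleted from beta cells, and Xbp1fl/fl islets, which carry the floxed allele. Mice of both groups were 5 weeks old and both received tamoxifen, so the control islets shared the drug. Neither the promoter that drives the Cre recombinase nor the deleted exons are given in the labels. Islets were hand-picked and cultured overnight before dissociation and 10x library preparation, so all levels are those of cultured islets.

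The matrix pools 4 libraries, told apart only by the number at the end of each cell barcode. No sample title equals one of these numbers, so no library could be assigned to a genotype. The groups are therefore not compared, and the library numbers carry no order. After filtering, 16146 of 19987 barcodes remained, and 45 barcode sequences occurred in more than 1 library. Cells were gated by hormone transcripts. Beta cells had at least 5% of their unique molecular identifiers (UMIs, counted transcripts) from Ins2, alpha cells at least 5% from Gcg and delta cells at least 3% from Sst. Beta cells with at least 0.5% from Spp1, which encodes the secreted protein osteopontin, are called Spp1-high and the rest Spp1-low. In libraries 1 to 4 there were 355, 131, 377 and 219 Spp1-high beta cells, 234, 3211, 356 and 2002 Spp1-low beta cells, 252, 769, 298 and 727 alpha cells, and 220, 426, 334 and 403 delta cells. Non-endocrine cells, which passed no hormone gate, numbered 2474, 398, 1922 and 210. Their median share of UMIs from Ins2 was 0.0636%, 1.60%, 0.0858% and 0.787%, so they were not free of hormone transcripts. Of the markers listed for each type, at least 7 of 8 for beta cells, 7 of 7 for alpha cells and 4 of 5 for delta cells were highest in their own gate in every library. The delta marker Rgs2 was not, and Iapp was not highest in beta cells of libraries 2 and 4. The counts include Ins2, Gcg and Sst, which define the gates, so the place of these genes was fixed in advance.

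Levels are UMIs of a gene summed over the cells of a class in 1 library and scaled to 1000000 UMIs of that class (CPM). Hormone transcripts took 40.0%, 57.7%, 40.9% and 56.5% of all UMIs of beta cells in libraries 1 to 4, against 26.3% to 30.3% in alpha cells. A larger hormone share lowers the CPM of every other gene, so each comparison was repeated on a total without 7 hormone genes (Ins1, Ins2, Iapp, Gcg, Sst, Ppy and Pyy). Total depth was between 82963911 and 178396311 UMIs per library. Xbp1 itself stood at 49.3, 96.1, 45.1 and 96.0 CPM in beta cells of libraries 1 to 4. These values assign no genotype, since the labels do not say which part of the gene was removed.

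Polyamines are small, positively charged molecules that bind nucleic acids and are needed for translation and growth. Ornithine decarboxylase, encoded by Odc1, makes putrescine from ornithine and is the rate-limiting enzyme of synthesis. The decarboxylase encoded by Amd1 makes the aminopropyl donor from S-adenosylmethionine, with which spermidine synthase (Srm) and spermine synthase (Sms) extend putrescine to spermidine and then to spermine. Antizymes, encoded by Oaz1 and Oaz2, bind ornithine decarboxylase, direct it to the proteasome and restrain polyamine uptake. Sat1 encodes the acetyltransferase that marks spermidine and spermine for oxidation or export. On GRCm38, Amd1 lies on chromosome 10 (40287458 to 40302186, minus strand), Srm on chromosome 4 (148591503 to 148594993, plus), Sms on chromosome X (157443855 to 157492287, minus), Oaz1 on chromosome 10 (80826656 to 80829290, plus) and Oaz2 on chromosome 9 (65668001 to 65690300, plus). Spermidine also supplies hypusine, a modified lysine of the translation factor eIF5A, which beta cells are known to use in translation.

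Much of the control of these genes acts on translation and protein turnover, which mRNA counts do not show. The antizyme reading frame is the clearest case, and its site is shown because Oaz1 and Oaz2 counts do not tell how much antizyme is made. Ribosomes must shift by a base at a stop codon, and polyamines raise the share that do. The transcript sequences around this stop in mouse Oaz1 (GRCm38 chr10:80828265-80828327, plus strand) and Oaz2 (chr9:65686242-65686304, plus strand) are given below from GENCODE M21 transcripts, 5′ to 3′, with the stop codon in capitals. The Oaz1 window was read from a transcript annotated as protein-coding, and the Oaz2 window from one annotated as a processed transcript.
Oaz1: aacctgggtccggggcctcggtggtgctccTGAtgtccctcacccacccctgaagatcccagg
Oaz2: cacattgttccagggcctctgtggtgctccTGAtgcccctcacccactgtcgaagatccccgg
The windows were identical at 51 of 63 bases, with an unbroken match of 15 bases.

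Odc1 was the member that varied most between libraries in beta cells. Its gene (ENSMUSG00000011179) lies on GRCm38 chromosome 12, 17544794 to 17551505, on the plus strand. In Spp1-low beta cells Odc1 stood at 56.7, 134, 37.6 and 225 CPM in libraries 1 to 4. The exact 95% Poisson intervals, 52.5 to 61.1, 132 to 136, 34.8 to 40.5 and 222 to 228 CPM, cover counting error only and did not overlap. Spp1-high beta cells kept this order, with 78.6, 157, 48.8 and 263 CPM in libraries 1 to 4. In all beta cells the highest level over the lowest, with 10 CPM added to both, was 4.504-fold. Of all genes counted, 44 of 7068 (0.623%) had a wider range, and 6.49% of genes reached the 2-fold range used as a threshold. This is the spread on which Odc1 was selected, so its rank is not a finding.

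The range depended on 2 libraries. It fell to 2.74-fold without library 4 and 2.999-fold without library 3. When the total excluded the hormone genes, beta cells held Odc1 at 116, 320, 72.8 and 526 CPM in libraries 1 to 4, and the range was 6.47-fold. The larger hormone share of libraries 2 and 4 thus made the range narrower on the CPM scale.

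None of the other 6 members reached a 2-fold range in beta cells. Sat1 had 1.57-fold, Sms 1.504-fold, Oaz2 1.39-fold, Srm and Oaz1 1.32-fold each and Amd1 1.20-fold, around a median gene at 1.36-fold. Odc1 also passed 2-fold within each Spp1 class, at 4.65-fold in Spp1-high cells, where 12.1% of genes did so, and 4.94-fold in Spp1-low cells, where 4.07% did. Sms was lower in beta cells of libraries 2 and 4 (18.1 and 18.4 CPM) than of libraries 1 and 3 (31.3 and 32.3 CPM). Without hormone genes its levels were 52.2, 42.8, 54.7 and 42.4 CPM in libraries 1 to 4, a narrower range of 1.23-fold. Srm, whose product uses the putrescine that ornithine decarboxylase makes, had 18.6, 27.8, 18.9 and 24.2 CPM in beta cells. Its range grew to 1.85-fold without hormone genes, with the higher levels again in libraries 2 and 4.

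**Figure D1:**
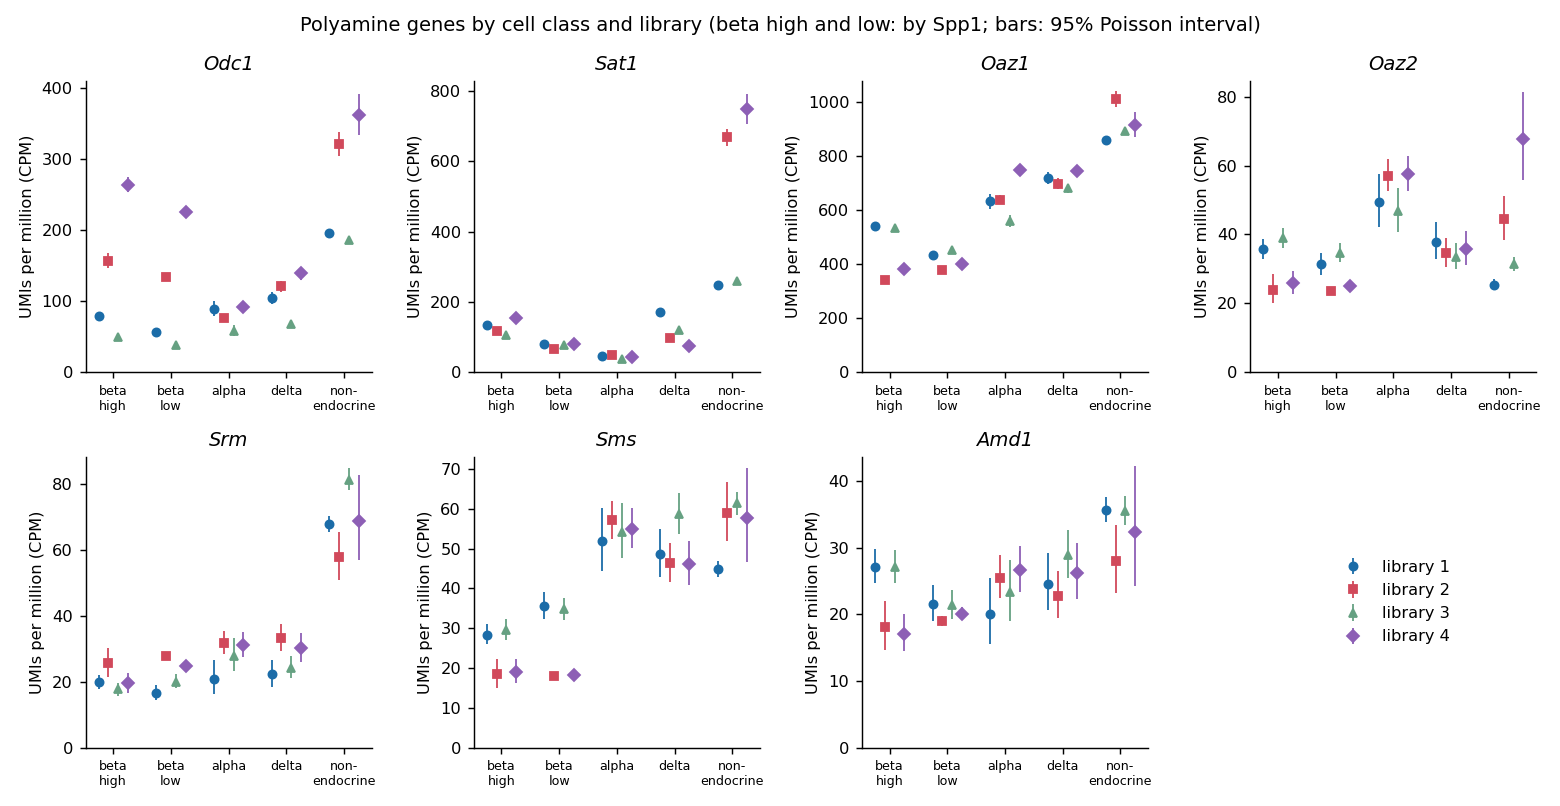
Levels of the 7 genes (CPM, linear axes from 0) in Spp1-high beta, Spp1-low beta, alpha, delta and non-endocrine cells, 1 point for each of 4 libraries with its 95% Poisson interval. Odc1 spreads from 37.6 to 225 CPM in Spp1-low beta cells, while alpha cells lie between 58.1 and 91.4 CPM.

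In alpha cells of the same libraries Odc1 stood at 88.9, 75.4, 58.1 and 91.4 CPM, a range of 1.49-fold that 4.94% of genes exceeded. Delta cells held 104, 121, 67.7 and 139 CPM, a range of 1.92-fold. Non-endocrine cells held 195, 320, 186 and 362 CPM, a range of 1.90-fold. Library 3 had the lowest level and library 4 the highest in each of these classes too, but the libraries lay closer together than in beta cells. At the 2-fold threshold, 1.71% of genes passed in alpha cells, 2.37% in delta cells and 15.6% in non-endocrine cells. The members that passed were Sat1 in delta cells (2.14-fold) and Sat1 (2.93-fold) and Oaz2 (2.20-fold) in non-endocrine cells.

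In single beta cells the order of the libraries held at the median and at the 90th percentile. The median Spp1-low beta cell held Odc1 at 31.6, 57.9, 18.6 and 97.3 CPM in libraries 1 to 4, and the cell at the 90th percentile held 118, 315, 103 and 557 CPM. The 10% of these cells with the most Odc1 UMIs held 50.7%, 51.6%, 47.8% and 49.3% of them. By this share Sat1 UMIs were concentrated to a similar degree, with 42.0% to 47.0% in the top 10%, so an uneven spread over cells was not seen for Odc1 alone. The variance over the Poisson expectation differed more. It was 11.8, 17.6, 4.61 and 20.2 for Odc1 in libraries 1 to 4, against 5.65, 7.07, 5.93 and 6.55 for Sat1. At least 1 Odc1 UMI was found in 71.4%, 80.01%, 62.6% and 82.9% of Spp1-low beta cells, at a median of 37237.5 to 48098 UMIs per cell. Thinned to 5000 UMIs per cell, which left out 14, 149, 26 and 62 shallower cells, the shares were 20.2%, 34.9%, 15.7% and 45.5%. Thinned alpha cells, without 28, 71, 27 and 50 shallower cells, had 28.8%, 25.9%, 21.2% and 31.5%, against 47.6%, 47.7%, 41.3% and 53.1% before thinning. Transcripts out of place differed between libraries as well. The median alpha cell, which should lack insulin transcripts, had 0.0719%, 1.27%, 0.0922% and 0.631% of its UMIs from Ins2. The part of such free RNA in the Odc1 levels was not tested.

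**Figure D2:**
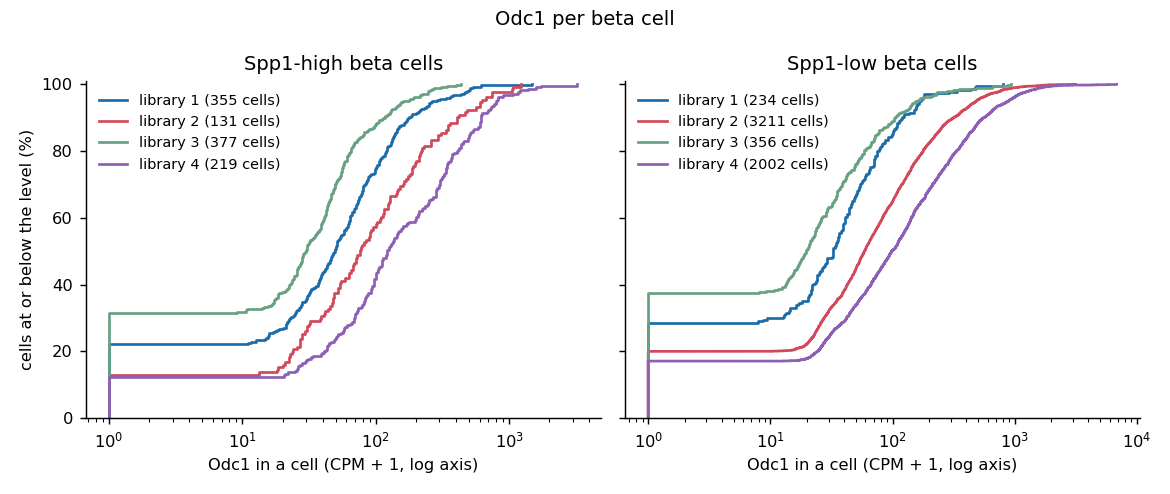
Cumulative share of beta cells (%) at or below each Odc1 level (CPM + 1 on a log axis), Spp1-high cells on the left and Spp1-low cells on the right, with 1 line per library. The lines of library 3 and library 4 stand farthest apart, with medians of 18.6 and 97.3 CPM in Spp1-low cells.

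The sequence just upstream of Odc1 is shown because its transcript level was the most variable member. It covers GRCm38 chr12:17544623-17544793 on the plus strand, from the RefSeq promoter table, and ends before the annotated gene start.
Odc1: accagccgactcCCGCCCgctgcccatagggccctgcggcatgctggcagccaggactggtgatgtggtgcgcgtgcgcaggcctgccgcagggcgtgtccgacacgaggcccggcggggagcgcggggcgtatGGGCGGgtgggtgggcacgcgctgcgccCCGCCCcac
Capitals mark the GC box GGGCGG or its reverse complement, which occurred at 3 places. The 250 bases upstream of Sat1, whose level moved most with Spp1, run 5′ to 3′ along the minus strand from GRCm38 chrX:155216450-155216699 and held 2 GC boxes.
Sat1: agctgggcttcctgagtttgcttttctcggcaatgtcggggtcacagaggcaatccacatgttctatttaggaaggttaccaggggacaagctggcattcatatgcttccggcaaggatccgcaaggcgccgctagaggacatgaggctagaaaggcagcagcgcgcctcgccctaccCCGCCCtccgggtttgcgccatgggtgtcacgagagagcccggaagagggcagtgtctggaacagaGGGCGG
Of 32851 RefSeq promoters, 2.78% held at least 3 GC boxes on either strand in the 171 bases that match the Odc1 window, and 16.7% held at least 2 in 250 bases. Over 250 bases, CACGTG, the E-box bound by Myc, was in 6.02% of promoters, and TGACGTGG, a core of the unfolded protein response element, in 0.563%. Neither occurred in the printed windows of Odc1 and Sat1, nor in the 250 bases searched for Odc1, which run past its annotated start. CCAAT (33.8% of promoters) and TATAAA (12.4%) were also not found there. Bases farther into the genes were not searched, so sites there are not excluded. Of the members, 6 had an entry in the table, and Sms, with 2 entries, had 1 CACGTG.

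Beta cells were next set against alpha cells of the same library, as log2 ratios of CPM plus 10. A gene counted as past the fold when it differed by at least 1.5-fold in the same direction in every library. Odc1 split the libraries. In beta cells it was lower than in alpha cells in libraries 1 and 3, by log2 ratios of -0.31 and -0.36. It was higher in libraries 2 and 4, by 0.77 and 1.24. Without hormone genes its ratios were -0.05, 1.48, -0.18 and 1.95 in libraries 1 to 4, so libraries 1 and 3 lay nearer to no difference. No member was past the fold in either direction, where 3.05% of 8570 genes were higher and 12.9% lower. All 7 members passed the filter of 10 CPM on average in either class. The median gene had a log2 ratio of -0.22, -0.49, -0.15 and -0.50 in libraries 1 to 4, and between -0.06 and 0.01 without hormone genes.

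Sat1 was higher in beta than in alpha cells in every library. It stood at 112, 68.2, 91.6 and 87.6 CPM in beta cells, against 45.5, 47.9, 36.2 and 41.6 CPM in alpha cells. The folds were 2.20, 1.35, 2.20 and 1.89, so library 2 alone fell short of 1.5-fold. Without hormone genes Sat1 was past the fold, with log2 ratios of 1.46, 1.12, 1.41 and 1.62. On that total 719 of 8570 genes were past the fold and higher. With all genes in the total, 11.2% of genes were higher by any amount in every library.

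Sms was lower in beta cells in every library under both scales. It stood at 31.3, 18.1, 32.3 and 18.4 CPM in beta cells, against 51.9, 57.1, 54.1 and 55.0 CPM in alpha cells. Log2 ratios were -0.58, -1.25, -0.60 and -1.19, of which library 1 lay just inside the 1.5-fold limit, and -0.37, -0.80, -0.44 and -0.74 without hormone genes. The share of genes lower by any amount in every library was 59.2%. Both antizyme genes were among these. Oaz1 had 498, 376, 491 and 398 CPM in beta cells, against 633, 639, 560 and 749 CPM in alpha cells. Without hormone genes its log2 ratios were -0.05, -0.05, 0.05 and -0.21, so the direction did not hold in library 3. Oaz2 had 33.8, 23.5, 36.7 and 25.1 CPM in beta cells, against 49.5, 57.1, 46.8 and 57.6 CPM in alpha cells, and stayed lower without hormone genes (-0.22, -0.49, -0.10 and -0.43).

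Srm was also lower in every library (-0.12, -0.14, -0.39 and -0.27), but higher in libraries 1, 2 and 4 without hormone genes. Amd1 stood at 24.9, 19.0, 24.2 and 19.8 CPM in beta cells, against 20.04, 25.5, 23.3 and 26.7 CPM in alpha cells, with ratios of either sign. Its counts are uncertain, because transcripts of Amd1 and its paralog Amd2 were 99.6% identical over 3204 aligned bases and reads may be assigned to neither. Amd2 itself was at most 1.31 CPM in beta, alpha or delta cells. The list of 7 had a median log2 ratio of -0.21, beside -0.35 for all genes counted. Alpha cells had more mitochondrial UMIs than beta cells (medians of 3.37% to 3.74%, against 1.74% to 2.11% in beta cells) and a lower median depth, and the part of RNA quality in these ratios was not tested.

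**Figure D3:**
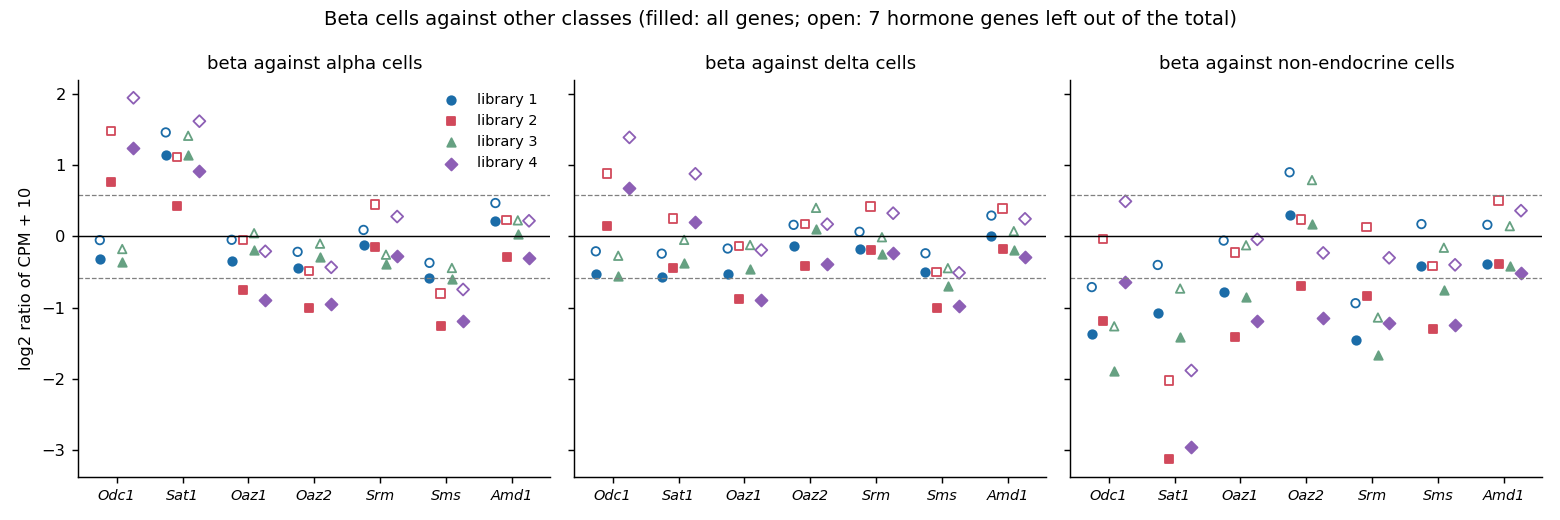
Log2 ratios of CPM plus 10 of beta cells over alpha, delta and non-endocrine cells for the 7 genes, 1 marker per library, filled with all genes in the total and open with 7 hormone genes left out. Dashed lines mark 1.5-fold. Against alpha cells Odc1 lies below 0 in libraries 1 and 3 and above 0 in libraries 2 and 4, while Sat1 lies above 0 and Sms below 0 in all 4.

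Against delta cells no member was past the fold either, where 2.08% of 8545 genes were higher and 12.6% lower. Odc1 again divided the libraries, with log2 ratios of -0.52, 0.15, -0.55 and 0.68, and -0.21, 0.89, -0.27 and 1.39 without hormone genes. Sms (-0.51, -1.002, -0.70 and -0.98) and Oaz1 (-0.52, -0.88, -0.46 and -0.89) were lower in beta cells in every library, and both remained so without hormone genes, where Oaz1 had ratios between -0.19 and -0.12. Srm (-0.18, -0.19, -0.25 and -0.23) was lower in every library too, but without hormone genes only in library 3 (0.07, 0.42, -0.01 and 0.33). Of all genes, 72.0% were lower by any amount in every library. Sat1 did not separate these classes. It stood at 112, 68.2, 91.6 and 87.6 CPM in beta cells, against 172, 95.9, 121 and 74.8 CPM in delta cells, and only in library 4 were beta cells higher. The list median was -0.26, beside -0.36 for all genes.

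Within beta cells, Sat1 was the member that differed most by Spp1. Sat1 (ENSMUSG00000025283, GRCm38 chromosome X, 155213132 to 155216449, minus strand) stood at 134, 116, 105 and 153 CPM in Spp1-high cells, against 81.3, 66.3, 78.5 and 80.1 CPM in Spp1-low cells. The folds were 1.58, 1.65, 1.31 and 1.80 in libraries 1 to 4. Library 3 alone stayed under 1.5-fold, so Sat1 was not past the fold, and without hormone genes library 1 fell short too. Odc1 was higher in Spp1-high cells in every library by smaller folds of 1.33, 1.15, 1.24 and 1.16. Hormone transcripts took 35.0%, 55.9%, 36.6% and 54.8% of UMIs in Spp1-high cells, against 47.3%, 57.8%, 45.0% and 56.7% in Spp1-low cells. The median gene had a log2 ratio of 0.19, -0.01, 0.15 and -0.01 in libraries 1 to 4. Without hormone genes the log2 ratios of Odc1 were 0.15, 0.15, 0.15 and 0.16. No member was past the fold, where 0.219% of 7320 genes were higher and 0.041% lower, and 24.4% of genes were higher by any amount in every library. Amd1, Srm, Sms and Oaz1 had ratios of either sign, and Oaz2 was higher by at most 1.11-fold in every library but lower without hormone genes.

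Sat1 was higher in every group of beta cells above the 0.5% limit than in cells with under 0.02% of UMIs from Spp1, but above the limit it rose from group to group in library 4 alone. In library 4 it stood at 73.9 CPM below 0.02%, 98.1 CPM at 0.1 to 0.5%, 136 CPM at 0.5 to 1%, 157 CPM at 1 to 2% and 212 CPM above 2%. In library 2 the first 4 of these values were 61.0, 87.0, 109 and 107 CPM. Library 1 had 66.05, 128, 159, 110 and 142 CPM in the same 5 groups. Library 3 moved least, with 71.2, 77.5, 112, 91.0 and 116 CPM. The lowest Sat1 level above the limit was thus at 1 to 2% of Spp1 in libraries 1 and 3. In library 2 the groups at 0.5 to 1% and 1 to 2% did not differ beyond counting error (intervals of 97.9 to 121 and 92.1 to 124 CPM). Odc1 stood at 67.4 CPM above 2% of Spp1 and at 58.8 CPM below 0.02% in library 1, and at 364 and 214 CPM in the same groups of library 4. It was not higher in every group above the limit. Library 4 held 209 CPM at 0.5 to 1%, and library 2 held 113 CPM at 1 to 2%, against 128 CPM below 0.02%. In the remaining groups above the limit it was higher than below 0.02% in the same library. Just inside the Spp1 limit, cells with 0.5 to 0.6% held Odc1 at 71.8, 211, 30.9 and 183 CPM in libraries 1 to 4 (8, 27, 19 and 33 cells), and just outside it, cells with 0.4 to 0.5% held 90.5, 137, 35.5 and 244 CPM (9, 37, 24 and 49 cells). Library 2 was thus higher inside the limit and library 4 higher outside it, with intervals that did not overlap. In libraries 1 and 3 the intervals inside and outside the limit overlapped widely, so no direction can be read there. At the Ins2 limit Odc1 stood at 111, 94.1, 55.4 and 76.7 CPM at 5 to 6% (12, 16, 13 and 6 cells) and at 131, 118, 111 and 141 CPM at 4 to 5% (10, 26, 21 and 9 cells). In library 4 these values rest on 2 UMIs each, with intervals of 9.29 to 277 and 17.1 to 511 CPM. In library 2 they rest on 6 and 11 UMIs. The intervals on either side of the Ins2 limit overlapped widely in library 1 as well, so no step there can be read in libraries 1, 2 and 4. In library 3 the intervals overlapped only at their ends.

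Spp1 is also a ductal gene, and markers of other types were summed in both beta classes. The 6 ductal markers other than Spp1 summed to 1170, 487, 743 and 499 CPM in Spp1-high cells, against 695, 401, 783 and 436 CPM in Spp1-low cells. The 6 acinar markers summed to 2764, 0, 6.65 and 0.905 CPM in Spp1-high cells, against 81.5, 2.31, 7.31 and 3.57 CPM in Spp1-low cells. All 6 acinar markers were at 0 in Spp1-high cells of library 2, and the acinar sum was high in library 1 alone. The ductal sum was higher in Spp1-high cells of libraries 1, 2 and 4. The part of ductal and acinar RNA in the Sat1 and Odc1 levels was not tested.

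**Figure D4:**
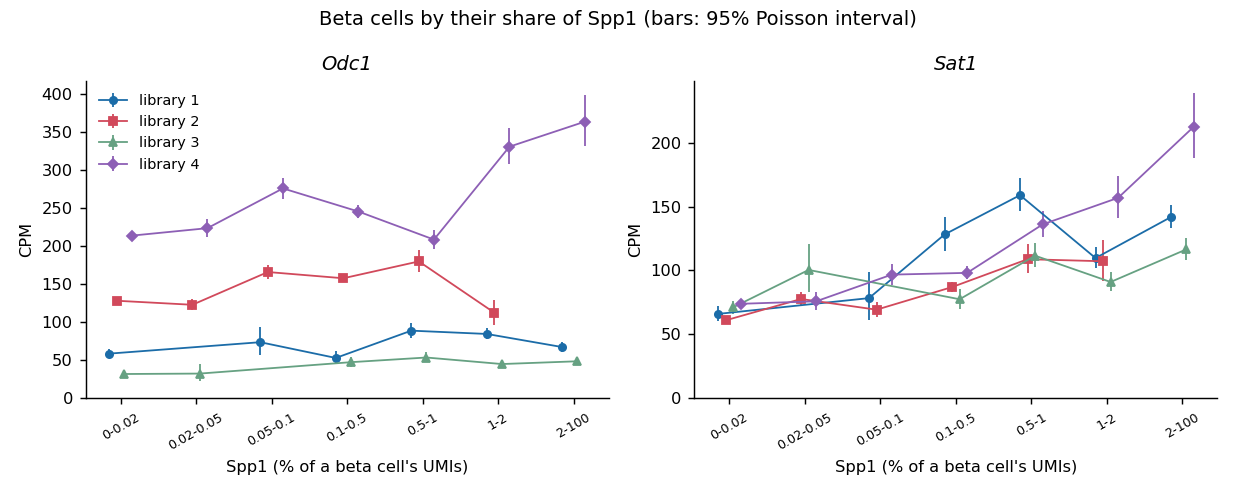
Odc1 and Sat1 (CPM, axes from 0) in beta cells grouped by the share of their UMIs from Spp1, from under 0.02% to above 2%, 1 line per library with 95% Poisson intervals and groups of at least 20 cells. Sat1 in library 4 is 212 CPM in the highest group and 73.9 CPM in the lowest, while the Odc1 lines of libraries 2 and 4 lie above those of libraries 1 and 3 at each Spp1 share where both have a group.

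Against non-endocrine cells, 4 members were past the fold and lower in beta cells, Odc1, Srm, Oaz1 and Sat1. Of 9687 genes, 28.1% were past it and lower and 5.77% higher. No member was past the fold without hormone genes, where 1393 of 9687 genes were lower and 1882 higher. Odc1 stood at 69.7, 135, 43.0 and 229 CPM in beta cells, against 195, 320, 186 and 362 CPM in non-endocrine cells. The log2 ratios were -1.36, -1.19, -1.89 and -0.64, and -0.71, -0.04, -1.26 and 0.49 without hormone genes, so library 4 changed sign. Sat1 kept its direction on both scales, with ratios of -1.08, -3.12, -1.41 and -2.96, and -0.40, -2.02, -0.73 and -1.88 without hormone genes. Sms and Amd1 were lower in every library but not past the fold, as were 61.8% of genes by any amount, and Oaz2 had ratios of either sign. The list median was -1.02, beside -0.52 for all genes.

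The non-endocrine class holds many types, and their shares differed between libraries. Cells were sorted by marker lists, with at least 3 markers detected and more than for any other list, and each name below stands for its list. B cells made up 27.6%, 6.78%, 26.9% and 0.476% of the class in libraries 1 to 4, and endothelial cells 6.22%, 28.6%, 8.58% and 37.6%. T cells had the highest Odc1 level where at least 20 of them were found, with 421, 838 and 396 CPM in libraries 1 to 3 (190, 51 and 151 cells). Endothelial cells (154, 114, 165 and 79 cells) held Odc1 at 126, 466, 112 and 463 CPM in libraries 1 to 4. Their levels in libraries 2 and 4 were far above those in libraries 1 and 3. Macrophages and dendritic cells had 237, 113, 241 and 169 CPM, with the lower levels in libraries 2 and 4. Fibroblasts and pericytes had 251, 166 and 349 CPM in libraries 1, 3 and 4 (160, 180 and 20 cells). Ductal cells held a narrow range of 189, 193 and 166 CPM in libraries 1 to 3. Acinar cells, found in number only in library 1 (40 cells), had 38.9 CPM.

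Sat1 was highest in endothelial cells in every library. It stood there at 635, 1565, 581 and 1551 CPM in libraries 1 to 4, again far higher in libraries 2 and 4. Macrophages and dendritic cells held Sat1 at 503, 555, 549 and 485 CPM, with no such split. T cells, with the highest Odc1, had only 130, 159 and 166 CPM of Sat1 in libraries 1 to 3. Smox, the spermine oxidase, was also higher in endothelial cells of libraries 2 and 4 (66.1 and 69.2 CPM) than of libraries 1 and 3 (18.8 and 22.5 CPM). Oaz2 had its highest level among these types in endothelial cells, at 82.6, 95.3, 91.4 and 109 CPM. Srm was highest in fibroblasts and pericytes, at 242, 221 and 175 CPM in libraries 1, 3 and 4, against 36.6 to 121 CPM in B cells and 19.0 to 40.3 CPM in macrophages and dendritic cells. Sms was highest in T cells of libraries 1 and 3, at 158 CPM in both, and in the 27 B cells of library 2, at 187 CPM. The median endothelial cell had 0.0532%, 1.39%, 0.0675% and 0.732% of its UMIs from Ins2, so these cells too carried more insulin RNA in libraries 2 and 4, and its part in the split was not tested.

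**Figure D5:**
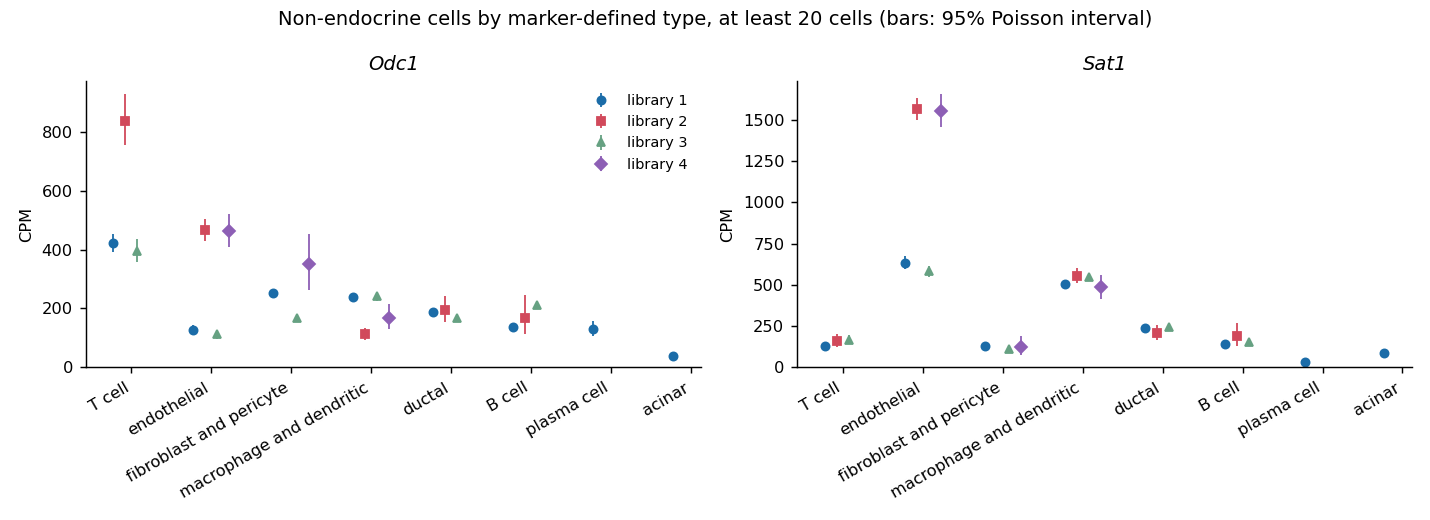
Odc1 and Sat1 (CPM, axes from 0) in non-endocrine types with at least 20 cells, 1 point per library with its 95% Poisson interval. T cells are highest for Odc1 (396 to 838 CPM), and endothelial cells are highest for Sat1, at 1565 and 1551 CPM in libraries 2 and 4.

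Of 33 other genes of the pathway, 14 passed the filter against alpha cells, and the rest averaged under 10 CPM in both classes. Past the fold were 0 higher and 2 lower of these 14, beside 3.05% higher and 12.9% lower of all genes, so this count is near the background. Oat, which interconverts ornithine and glutamate semialdehyde, stood at 26.6, 4.63, 20.6 and 4.67 CPM in beta cells, against 68.6, 57.7, 62.3 and 62.6 CPM in alpha cells. It was past the fold, with a median log2 ratio of -1.72. Slc7a2, a carrier of arginine and other cationic amino acids, had 58.6, 41.1, 67.5 and 28.4 CPM in beta cells, against 331, 404, 393 and 365 CPM in alpha cells (median -2.70). It is on the list of alpha markers, so its direction was known.

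Against delta cells 14 of the 33 were counted, and 1 was higher and 1 lower, beside 2.08% and 12.6% of all genes. The higher one was Slc7a2, whose beta-cell levels stood against 30.2, 15.1, 22.2 and 13.3 CPM in delta cells, with a median log2 ratio of 0.90. The lower one was Arg1, arginase, which makes ornithine from arginine. Arg1 had 16.2, 1.52, 18.2 and 0.990 CPM in beta cells, against 217, 136, 231 and 125 CPM in delta cells. It averaged under 10 CPM in beta cells and was counted only through delta cells, so the filter fixed its direction. Acinar markers summed to 2453, 169, 138 and 129 CPM in delta cells, and the part of acinar RNA in the Arg1 levels was not tested. Azin1, the antizyme inhibitor, stood at 51.3, 46.5, 47.4 and 47.9 CPM in beta cells, a narrow range beside that of Odc1, and was not past the fold against either type. Eif5a, Dhps and Dohh, the hypusination genes that passed the filter, were also not past it against alpha or delta cells.

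Against non-endocrine cells 18 of the 33 were counted. Past the fold were 8 lower and 0 higher of these 18, beside 28.1% of all genes lower and 5.77% higher. Of the 13 averaging at least 10 CPM in beta cells, a subset without its own background, 3 were past the fold and lower. They were Oat (median -2.21), Mat2a (-1.55), which makes S-adenosylmethionine, and Eif5a (-1.39), and of these Oat remained past it without hormone genes. The other 5, Arg1, Myc, Smox, Arg2 and Mtap, were counted only through the non-endocrine cells, so the filter fixed that they were lower. Myc, whose product activates Odc1, stood at 4.66, 4.01, 3.35 and 4.64 CPM in beta cells, against 52.6, 33.5, 51.2 and 45.0 CPM in non-endocrine cells. None of the 33 was past the fold between the beta classes.

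The genes whose level ran most like that of Odc1 were sought over 20 profiles, 5 classes in each of 4 libraries. The search took 5176 genes with at least 50 CPM in at least 1 profile. Rars, the arginyl-tRNA synthetase, had the highest Pearson correlation of log2 levels (r = 0.94), then Pgk1, a glycolytic kinase (0.89), Slc2a1, a glucose transporter (0.86), Tmed9, a cargo receptor of the secretory path (0.85), and Fosl2, a subunit of the AP-1 factor (0.85). The profiles share libraries, depth and hormone share, so these values only describe. Slc2a1 and Fosl2 reached 50 CPM only in non-endocrine cells, where Odc1 was highest in each library, so the filter bore on their likeness. Rars stood at 52.3, 71.7, 41.2 and 81.7 CPM in Spp1-low beta cells of libraries 1 to 4, the order of Odc1, but at 48.3, 48.3, 41.0 and 45.9 CPM in alpha cells. Of the members, Sat1 (0.69) and Srm (0.64) were closest to Odc1, and Oaz1 (0.28), Amd1 (0.16), Sms (-0.07) and Oaz2 (-0.10) were not close.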

How the data were processed

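Dispersed islet cells of 4 samples were measured by 10x single-cell RNA-seq. The deposited values are whole-number UMI counts per gene and cell in 1 pooled matrix of 66890401 entries. Per the submitters' processing notes, the authors used Cell Ranger 6.1.2 with mm10. Which annotation was used is not given in the sources read here. Of the feature identifiers, 99.6% were in GENCODE M21.

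Cells with at least 500 genes and at most 20% mitochondrial UMIs were kept. Cells past more than 1 hormone gate belonged to no class, nor did cells with at least 1% of UMIs from Ppy and no other gate. No doublet caller was run, so doublets may remain. Sums of UMIs per class and library were scaled to CPM, and ratios used CPM plus 10 within libraries of at least 50 cells per class. Genes were counted at 10 CPM on average. No test or p-value is given, because no library is tied to a sample, and Poisson and Clopper-Pearson intervals (95%) cover counting error only. Thinning used the hypergeometric expectation at 5000 UMIs per cell. The ratio step was checked on simulated counts.

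The members, gates and gene lists were chosen with earlier results of these data known. Up to 8 other pathway genes past the fold were named per comparison, by size, and the 5 genes most like Odc1. Other listed genes named in the text, such as Azin1, were chosen after their values were seen. Promoter sequences are from RefSeq (GRCm38.p6). The tools were Python 3.11.15, numpy 2.4.6, scipy 1.17.1, pandas 2.3.3 and matplotlib 3.10.9. Alternatives are given in the closing section.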

Additional observations from a re-analysis of the deposited data

Results flagged for a closer look

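Cells outside every comparison also held Odc1 transcripts. Cells gated by Ppy, with no other hormone gate passed, held Odc1 at 47.0 CPM over all libraries, at 100.6 CPM in library 1 (24 cells), 43.4 in library 2 (77), 37.1 in library 3 (37) and 33.7 in library 4 (59). Libraries 2 and 4, with the highest beta-cell levels, were not high there. Cells past more than 1 hormone gate held 117 CPM over all libraries, at 66.2, 130, 52.3 and 205 CPM in libraries 1 to 4 (76, 256, 131 and 168 cells), in the order of beta cells. Doublets were not told apart from cells that make several hormones.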

How the results depend on the processing

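Of 905 values recomputed for 79 results, 788 moved by less than 1 SD over libraries (counts of genes by less than 1.5 times), and 117 moved further. Medians of 0 results past the fold changed sign. Of members below it whose libraries shared a sign, 4 medians changed sign, all without hormone genes: Oaz2 between the beta classes became -0.03 (0.08 with all genes), Srm 0.19 against alpha cells (-0.21) and 0.20 against delta cells (-0.21), and Amd1 0.26 against non-endocrine cells (-0.40). The SD is wide where libraries differ. On a total without hormone genes, with the same genes counted, those past the fold numbered 719 higher and 592 lower against alpha cells (261 and 1109 with all genes), 411 and 508 against delta cells (178 and 1077), 1882 and 1393 against non-endocrine cells (559 and 2721), and 6 lower between the beta classes (3). The median log2 ratio of Odc1 became 0.15 between the beta classes and -0.37 against non-endocrine cells, and its range 6.467-fold. A pseudocount of 1 gave 39 higher and 6 lower genes between the beta classes, 1888 lower against alpha cells, 1766 lower against delta cells, 1070 genes past a 2-fold range (459 as reported) and an Odc1 range of 5.22-fold. Spp1-low beta cells alone gave 281 genes past that range and 4.94-fold for Odc1. Between the beta classes, cells past several gates kept gave 5 lower genes and doubled gates 6. Leaving out 1 library at a time gave 18 to 28 higher and 3 to 5 lower genes between the beta classes and an Odc1 range of 2.738-fold (without library 4) to 4.504-fold. Without library 2 Sat1 was past the fold against alpha cells, and without library 3 between the beta classes. The cause of these changes beyond the smaller totals and fewer libraries was not tested. No paired analysis was possible because the barcode numbers are not tied to samples, so the genotypes could not be set against each other. Ratios between classes are paired by library, and no test was put on them, since a matrix whose cells are not mapped to samples was treated as 1 sample. Members under about 30 CPM rest on few UMIs in small classes, and a difference there may not be detectable.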
